A study of Mus musculus with 8 samples.

Results

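The RNAs described here are made by RNA polymerase III, the polymerase of short structural RNAs. They are the 5S ribosomal RNA genes (mouse symbols that begin with n-R5s), Rpph1 (the RNA of RNase P), Rmrp (the RNA of RNase MRP) and Rn7sk (the 7SK RNA). Members were taken by symbol from the Entrez identifiers of the deposited table, which gave 4 of the 24704 genes tested. Only 1 n-R5s row was found, n-R5s136 (Entrez 100861491), beside Rpph1 (Entrez 85029), Rmrp (Entrez 19782) and Rn7sk (Entrez 19817). The members were chosen by symbol, but the set was proposed after n-R5s136 had been seen among the larger log2 fold changes of AdN5 over AdPl, so the values of that same comparison had a part in its choice. The fold changes of its members are therefore given as a description and support nothing by themselves.

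The cells were vascular smooth muscle cells of the mouse aorta, grown in DMEM with 15% serum. The 4 AdN5 arrays hold RNA of cells that received the virus titled AdN5, labelled as NFAT5 overexpression. The 4 AdPl arrays hold RNA of cells that received the virus titled AdPl, labelled as control. Both groups had 24 h of adenovirus and then 72 h of cholesterol at 10 µg/ml, so every array carries a virus and a cholesterol load, and no array shows the cells without them. NFAT5 (also TonEBP) switches on genes when cells meet hypertonic stress, and the study asks how it shapes transcription in cholesterol-exposed cells. The sources used here do not give the promoter that drives the transgene or the strain and age of the animals, and nothing says that the arrays of a group came from separate cultures. The p-values and standard errors then measure the spread between these arrays, which may be technical.

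RNA polymerase III reads the 5S genes from a promoter inside the gene, through the zinc finger protein TFIIIA. Rpph1, Rmrp and Rn7sk belong to another class, with a TATA box and a proximal sequence element upstream of the start, bound by the SNAP complex and the Brf2 form of TFIIIB. Their products act in different places. 5S RNA enters the large ribosomal subunit together with the proteins Rpl5 and Rpl11. RNase P trims the leader of transfer RNA precursors, RNase MRP cuts the precursor of ribosomal RNA, and 7SK RNA holds the elongation factor P-TEFb in an inactive particle. None of these RNAs carries a poly(A) tail of the kind found on messenger RNA. The labels do not say whether the labelling reaction started from poly(A) tails.

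Values are the deposited log2 RMA values. A gene is called where limma's test between the groups gave a p under 0.05 after Benjamini-Hochberg adjustment across the whole table. All arrays share nearly the same set of sorted values, so a value is set by the row's rank on its array. The values of different rows do not compare amounts of RNA. Pairs of arrays correlated at 0.990 to 0.992 within AdN5, at 0.992 to 0.993 within AdPl and at 0.989 to 0.992 between an AdN5 and an AdPl array (across genes, which are not independent replicates). Nfat5, the targeted gene, had 7.06, 6.95, 6.98 and 6.88 in AdN5 replicates 1 to 4, against 7.06, 7.22, 7.11 and 7.25 in AdPl replicates 1 to 4. Its log2 fold change of -0.19 ± 0.078 (SE; limma adjusted p = 0.360) shows no rise and so goes against the label. Whether its probes read the transgene is not known here, so every direction below is drawn from the labels. Of 10 smooth muscle markers 8 lay above the median value of an array (3.76), and Mylk and Des lay below it. Acta2 was at 11.74 ± 0.079 in AdN5 and 12.04 ± 0.021 in AdPl (SD, n = 4 each). Tagln was at 8.46 ± 0.033 in AdN5 and 8.39 ± 0.12 in AdPl (SD, n = 4 each). Myh11 averaged 5.32 in AdN5 and 5.32 in AdPl, and Lmod1 5.22 and 5.05. The 12 measured macrophage markers all had means above those of AdPl, and 3 were called higher, where 0.364% of all genes were called higher. The list mean ran from 5.90 to 6.10 over the AdN5 arrays and from 5.58 to 5.75 over the AdPl arrays. The called markers were Adgre1 (means of 8.39 in AdN5 and 7.72 in AdPl), Cd68 (8.65 and 8.12) and Laptm5 (8.21 and 7.68). Of the 12 markers 10 lay above the median value of an array. The leukocyte marker Ptprc, not called, was under it, with means of 3.60 in AdN5 and 3.34 in AdPl. Of the 9 measured fibroblast markers 1 was called lower, where 0.413% of all genes were called lower. Their mean was 5.67 to 5.90 over the AdN5 arrays and 6.11 to 6.15 over the AdPl arrays. Among them Dcn (12.13 in AdN5 and 12.20 in AdPl) and Pdgfra (9.16 and 9.32) were bright, and neither was called. In bulk RNA, a changed share of a cell type and a changed amount of RNA per cell cannot be told apart. The part of these shifts in the results below was not tested. On the first principal component (22.0% of the variance) the AdN5 arrays lay at 7.49 to 19.9 and the AdPl arrays at -17.1 to -6.80. On the second (17.1%) AdN5 replicate 4 (24.7) and AdPl replicate 3 (14.2) were at the upper end. AdN5 replicate 3 (-19.5) was at the lower end, and the other arrays lay at -11.1 to 0.337.

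The 5S row was the member with the largest difference. n-R5s136 had 8.73, 8.75, 8.91 and 8.51 in AdN5 replicates 1 to 4, against 7.73, 7.95, 7.89 and 7.75 in AdPl replicates 1 to 4. Every AdN5 array lay above every AdPl array, and the lowest AdN5 value was 0.56 above the highest AdPl value on the log2 scale, a wider gap than the spread inside either group (0.40 in AdN5 and 0.22 in AdPl). The log2 fold change was 0.89 ± 0.10 (SE; 95% interval 0.67 to 1.12), a level 1.86 times that of AdPl. In ranks, the row moved among the brighter rows of the array. It stood between place 891 and place 1295 from the top on the AdN5 arrays, and between place 2076 and place 2462 on the AdPl arrays. Only 16 of all genes had a larger log2 fold change, 8 of them called.

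The row cannot be tied to a single 5S copy. RefSeq's gene table for GRCm38.p6 names 69 n-R5s genes, and 68 of them have no row here. Between the protein genes Gas8 and Rhou lie 41 of the 69, n-R5s136 among them. The copies of a 5S cluster are nearly identical to each other, and the probe sequences are not given here, so the row may read several of them. The flanking protein genes had log2 fold changes near 0, at 0.0073 ± 0.098 (SE) for Gas8, a component of the dynein regulatory complex of cilia, and -0.015 ± 0.078 for Rhou, neither past the threshold (limma adjusted p = 0.988 and 0.966).

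Rpph1 was also higher in AdN5. It had 9.87, 9.81, 9.76 and 9.51 in AdN5 replicates 1 to 4, against 8.93, 9.29, 9.20 and 8.81 in AdPl replicates 1 to 4. The groups did not overlap, but the gap of 0.22 between them was smaller than the spread inside each (0.37 in AdN5 and 0.48 in AdPl). The log2 fold change was 0.68 ± 0.13 (SE; 95% interval 0.40 to 0.97), or 1.61 times the AdPl level. Parp2, the poly(ADP-ribose) polymerase gene that starts next to Rpph1 and shares its promoter region, averaged 6.26 ± 0.13 in AdN5 and 6.11 ± 0.13 in AdPl (SD, n = 4 each), with a log2 fold change of 0.14 ± 0.096 that did not pass (limma adjusted p = 0.615). Ccnb1ip1, the protein gene on the other side, was at 0.083 ± 0.11 (limma adjusted p = 0.836).

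**Figure D1:**
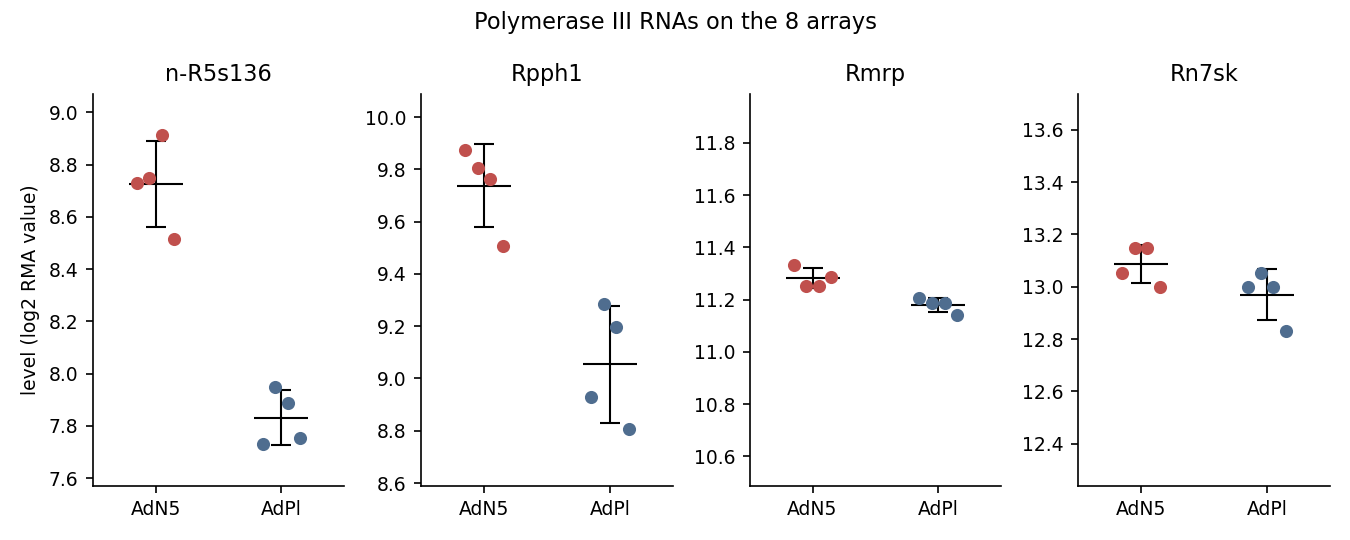
Deposited log2 RMA values (vertical axis, the same span of log2 units in each panel) of n-R5s136, Rpph1, Rmrp and Rn7sk in the AdN5 and AdPl groups. Points are arrays in the order of replicates 1 to 4, and bars are the mean and SD of 4 arrays. The groups stand apart for n-R5s136, by 0.56, and for Rpph1, by 0.22, lie close together for Rmrp and overlap for Rn7sk.

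Rmrp and Rn7sk showed small differences. Rmrp had 11.33, 11.25, 11.25 and 11.29 in AdN5 replicates 1 to 4, against 11.21, 11.19, 11.19 and 11.14 in AdPl replicates 1 to 4. The groups did not overlap, since the arrays of a group were very close to each other, and the gap between them was 0.049. The log2 fold change was 0.10 ± 0.066 (SE; 95% interval -0.045 to 0.25). Rmrp and Rpph1 encode the RNAs of related enzymes that share most of their proteins. Rn7sk had 13.05, 13.15, 13.15 and 13.00 in AdN5 replicates 1 to 4, against 13.00, 13.05, 13.00 and 12.83 in AdPl replicates 1 to 4. Here the groups overlapped, and the log2 fold change was 0.12 ± 0.080 (SE; 95% interval -0.061 to 0.30).

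These 2 rows sat near the top of the array, Rn7sk with few ranks left above it and Rmrp with more. Rmrp was between place 82 and place 86 in AdN5 and between place 92 and place 97 in AdPl. Rn7sk was between place 6 and place 8 in AdN5 and between place 7 and place 10 in AdPl. Because a value follows its rank, an Rn7sk value can rise only to those of the few places above it. Several Rn7sk values coincide where the ranks do. Rmrp had a wider range above it, with Snord33 at a mean of 11.88 and Snord100 at 12.31 in AdN5. The 18S-related row Rn18s-rs5 was at place 1 on all 8 arrays, at 13.60 in AdN5 and 13.60 in AdPl, so it could not show a rise.

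Of the 4 members 2 were called higher at an adjusted p under 0.05 (n-R5s136 and Rpph1), 0 were called lower and 2 were not called, where 0.364% of all genes were called higher, 0.413% lower and 0.777% in either direction. The groups did not overlap for 3 of the 4, all higher in AdN5, against 4.22% of all genes in that direction and 8.78% in either. The same contrast proposed the set, so these shares describe it and nothing is read from them. The call of n-R5s136 was present in 8 of 8 fits with 1 array left out, with log2 fold changes from 0.83 to 0.97. That of Rpph1 was present in 0 of those 8 fits, with log2 fold changes from 0.60 to 0.76, so leaving out any single array of either group ends it. Calls over all genes also fell in those fits, from 192 to between 56 and 88. Without AdN5 replicate 4 and AdPl replicate 3 together, the log2 fold changes were 0.98 for n-R5s136 (called), 0.81 for Rpph1, 0.10 for Rmrp and 0.16 for Rn7sk (the last 3 not called). Leaving out AdN5 replicate 3 alone gave 0.83 for n-R5s136 (called).

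The spread inside the groups is a measure that the choice of members did not use. In AdN5, replicate 4 had the lowest value of n-R5s136, of Rpph1 and of Rn7sk. In AdPl, replicate 2 had the highest value of these 3 RNAs, and replicate 4 had the lowest of Rpph1 and Rn7sk and the second lowest of n-R5s136. Rmrp did not follow this order in AdN5, where replicate 1 was highest and replicates 2 and 3 were lowest. As deviations from the group mean over 8 arrays, n-R5s136 and Rpph1 had Pearson's r = 0.76 (exact permutation p = 0.0556 within groups, two-sided, adjusted 0.111 over 6 pairs) and Spearman's coefficient = 0.67 (exact permutation p = 0.111, adjusted 0.222). Without AdN5 replicates 3 and 4, the arrays farthest from the median of n-R5s136, r was 0.91. n-R5s136 and Rn7sk had r = 0.71 (exact permutation p = 0.0556, adjusted 0.111) and Spearman's coefficient = 0.76 (exact permutation p = 0.0694, adjusted 0.222), and r was 0.61 without the same 2 arrays. Rpph1 and Rn7sk had r = 0.74 (exact permutation p = 0.0486, adjusted 0.111) and Spearman's coefficient = 0.69 (exact permutation p = 0.104, adjusted 0.222). That last relation rests on AdPl replicate 4 and AdN5 replicate 4, without which r was 0.077. The 3 pairs with Rmrp had r from -0.20 to 0.30 (exact permutation p from 0.472 to 0.896, adjusted 0.708 to 0.896) and Spearman's coefficient from -0.12 to 0.51 (exact permutation p from 0.271 to 0.875, adjusted 0.406 to 0.875). None of the 6 pairs passed after adjustment. Over 6 U-RNA rows the median r with n-R5s136 was 0.37 (from -0.95 to 0.75). Over 4 rows listed as other polymerase III RNAs it was 0.084 (from -0.0075 to 0.62). Over 107 small nucleolar and Cajal body RNAs it was 0.013 (from -0.68 to 0.85), and over all other genes -0.012 (from -0.97 to 0.98). Over the 6 lists of protein genes described below, the medians were all below 0. They ran from -0.35 (7SK particle and P-TEFb, from -0.86 to 0.68) to -0.052 (polymerase III subunits, from -0.66 to 0.40). These are descriptions over 8 arrays, which share preparation and normalisation from row to row.

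**Figure D2:**
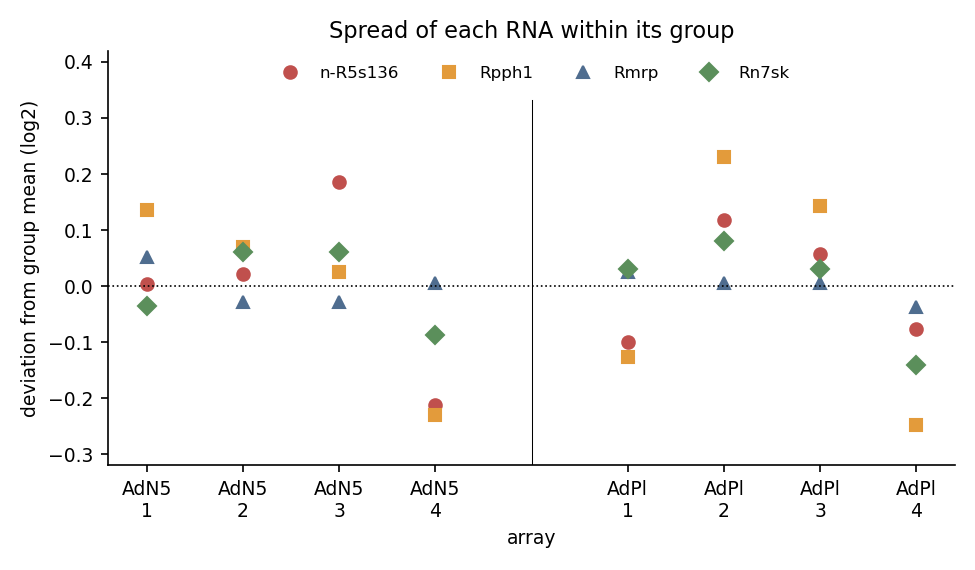
Deviation of each member from its group mean (vertical axis, log2 units) on each array (horizontal axis, AdN5 replicates 1 to 4, then AdPl replicates 1 to 4). Each symbol is 1 RNA, and n-R5s136, Rpph1 and Rn7sk are all below their mean on AdN5 replicate 4 and on AdPl replicate 4, and above it on AdPl replicates 2 and 3.

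Other rows listed as polymerase III RNAs did not pass the test. Rny1, the Y1 RNA of the Ro particle, had 8.17, 8.20, 8.42 and 8.29 in AdN5 replicates 1 to 4, against 8.52, 8.30, 8.60 and 8.33 in AdPl replicates 1 to 4. The groups overlapped, with most AdN5 arrays below the AdPl arrays, and the log2 fold change was -0.17 ± 0.096 (SE; 95% interval -0.38 to 0.051; limma adjusted p = 0.541). Vaultrc5, the vault RNA, was dim, at 2.92, 3.25, 2.99 and 2.67 in AdN5 replicates 1 to 4, against 2.60, 2.79, 2.68 and 2.74 in AdPl replicates 1 to 4. AdN5 replicate 4 lay inside the AdPl range and the other AdN5 arrays above it, and the log2 fold change was 0.26 ± 0.12 (limma adjusted p = 0.418). The RNase P RNA-like rows Rprl1 and Rprl2 are named for their likeness to the RNA that Rpph1 encodes. They were listed by symbol, and the sources used here do not say which polymerase makes them. Rprl1 averaged 4.75 ± 0.23 in AdN5 and 4.83 ± 0.18 in AdPl (SD, n = 4 each; log2 fold change -0.088, limma adjusted p = 0.851). Rprl2 averaged 6.9999 ± 0.14 in AdN5 and 6.95 ± 0.14 in AdPl (SD, n = 4 each; log2 fold change 0.046, limma adjusted p = 0.907). The 95% interval for Rprl2 ran from -0.18 to 0.28. Thus 0 of these 4 rows were called, and 0 had an unadjusted p under 0.05, a mark that 3097 of all genes (12.5%) passed. The 4 rows' log2 fold changes had a median of -0.021, beside 0.0042 over all genes.

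**Figure D3:**
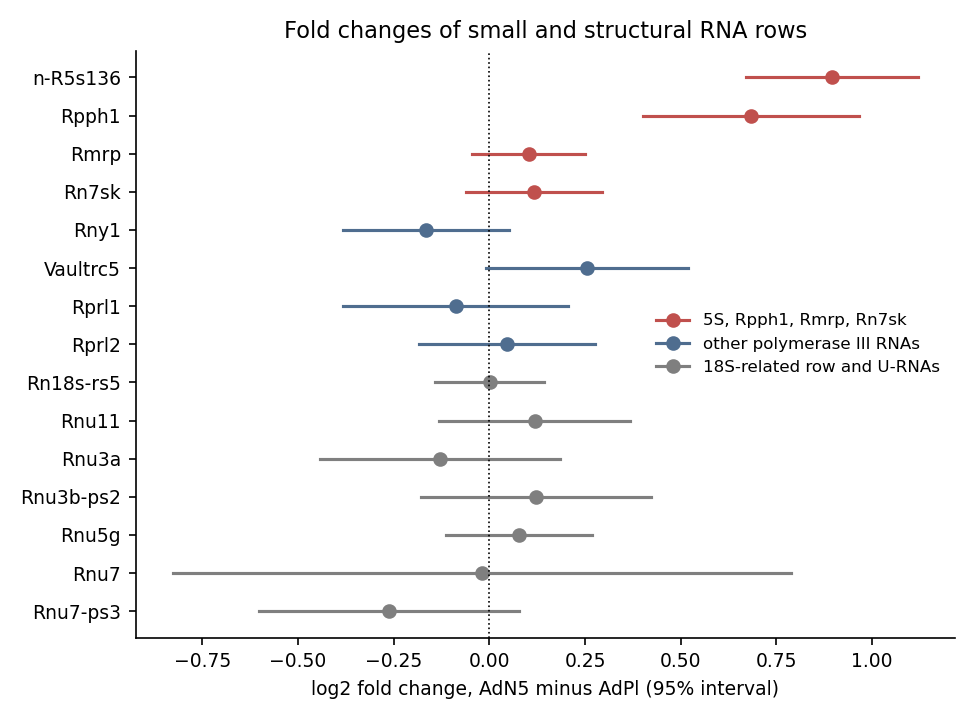
Log2 fold change, AdN5 minus AdPl (horizontal axis), with its 95% interval from limma. Shown are the 4 members, 4 rows listed as other polymerase III RNAs, the 18S-related row and 6 U-RNA rows. n-R5s136 (0.89) and Rpph1 (0.68) stand to the right of 0, and the intervals of the other rows include 0.

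Small RNAs made by other routes served as a comparison. Of 6 U-RNA rows 0 were called (0 at an unadjusted p under 0.05), with log2 fold changes from -0.26 for Rnu7-ps3 and -0.13 for Rnu3a, related to the U3 RNA, to 0.12 for Rnu11, an RNA of the minor spliceosome, and 0.12 for Rnu3b-ps2. Rnu7 (-0.019) and Rnu5g (0.077) lay between. Rnu5g, Rnu7 and Rnu7-ps3 were dim, with means under the median value of an array. Of the 107 small nucleolar and Cajal body RNAs, which guide modification and cleavage of other RNAs, 0 were called by limma. An unadjusted p under 0.05 was found for 11, against 12.5% of all genes. Of the 107, 37 had a log2 fold change above 0 and 70 below, where all genes gave 12608 above and 12096 below. The median of the 107 was -0.061. Snord52 (-0.63 ± 0.16, limma adjusted p = 0.145) and Snora20 (-0.59 ± 0.19, limma adjusted p = 0.245) stood at the lower end. At the upper end were Snord13, the U13 RNA, at 0.58 ± 0.13 (limma adjusted p = 0.0894), and Snora75, at 0.24 ± 0.22 (limma adjusted p = 0.728). Snord13 averaged 9.44 ± 0.19 in AdN5 and 8.86 ± 0.20 in AdPl (SD, n = 4 each), with groups that did not overlap.

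Of 543 microRNA gene rows 1 was called lower and 0 higher (49 had an unadjusted p under 0.05, against 12.5% of all genes), with a median log2 fold change of -0.0067. The called row was Mir697, at 2.66 ± 0.16 in AdN5 and 3.28 ± 0.14 in AdPl (SD, n = 4 each; log2 fold change -0.62 ± 0.11, limma adjusted p = 0.0368), a dim row in both groups whose call was present in 0 of 8 fits with 1 array left out. Mir1900 (-0.81) and Mir199a-1 (-0.78) lay lower still and Mir383 (0.55) and Mir297a-2 (0.53) were highest, none of them past the threshold.

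The protein genes of the polymerase III machinery showed no called change in either direction. The 6 lists held 71 symbols, of which 64 were measured and the others were not analysed here. Of the 17 measured subunits of the polymerase 0 were called (5 had an unadjusted p under 0.05, against 12.5% of all genes), with a median log2 fold change of 0.036. Polr3d (0.32 ± 0.089) and Polr3e (0.24 ± 0.095), both specific to polymerase III, were highest, and Polr2l (-0.44 ± 0.27), shared by the nuclear polymerases, and Polr3f (-0.31 ± 0.10) were lowest. Polr3d averaged 5.91 ± 0.15 in AdN5 and 5.59 ± 0.061 in AdPl (SD, n = 4 each), with groups that did not overlap (limma adjusted p = 0.173).

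Of 16 initiation factors 0 were called (3 had an unadjusted p under 0.05, against 12.5% of all genes), with a median of -0.032. Gtf3a encodes TFIIIA, the factor of the 5S genes and a protein that binds 5S RNA, and averaged 7.21 ± 0.088 in AdN5 and 6.997 ± 0.11 in AdPl (SD, n = 4 each). Its groups did not overlap, at a log2 fold change of 0.21 ± 0.085 (95% interval 0.021 to 0.40; limma adjusted p = 0.345). Brf2, the TFIIIB subunit used at promoters of the Rpph1 class, was at 0.18 ± 0.12 (limma adjusted p = 0.631). The SNAP complex genes Snapc5 (-0.28 ± 0.11) and Snapc3 (-0.27 ± 0.083) were at the lower end (limma adjusted p = 0.351 and 0.217). Their 95% intervals also left out 0, at -0.54 to -0.024 for Snapc5 and -0.46 to -0.084 for Snapc3. The groups of Snapc3 did not overlap either, with AdN5 lower. Among 7 measured regulators 0 were called (1 had an unadjusted p under 0.05, against 12.5% of all genes). Csnk2a1 (0.26) and Csnk2a2 (0.031), catalytic subunits of the kinase CK2, and the pocket proteins Rbl1 (0.23) and Rb1 (-0.13) were its ends. Maf1, the repressor of polymerase III, was at 0.063 ± 0.079 and Myc at 0.13 ± 0.087.

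**Figure D4:**
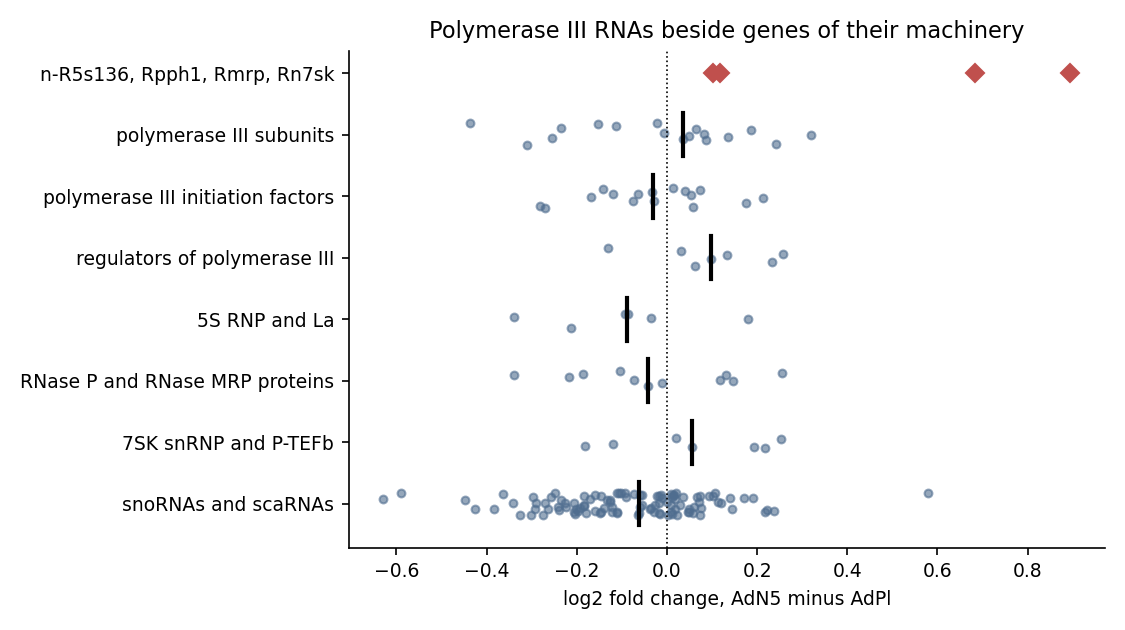
Log2 fold changes, AdN5 minus AdPl (horizontal axis), of the 4 members (diamonds, top line) and of the genes of 6 protein lists and the small nucleolar and Cajal body RNAs (points, vertical jitter only for display; vertical bars are medians). The protein genes lie between -0.44 and 0.32, with list medians from -0.090 to 0.099.

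Partners of the RNAs likewise gave 0 calls. Of 6 measured genes of the 5S particle and of RNA binding by La and Ro 1 had an unadjusted p under 0.05, against 12.5% of all genes. Their median log2 fold change was -0.090. Among these genes Rpl5, which carries 5S RNA into the ribosome, was at -0.34 ± 0.26 and Ro60, which binds Y RNA, at -0.21 ± 0.090. At the upper end, Rpf2, which in yeast helps to insert the 5S particle, was at 0.18 ± 0.19, and Ssb, encoding La, which binds the 3′ ends of new polymerase III RNAs, was at -0.034 ± 0.072. Of 11 protein genes of RNase P and RNase MRP 0 were called (3 had an unadjusted p under 0.05, against 12.5% of all genes; median -0.042). Pop4 averaged 8.93 ± 0.11 in AdN5 and 9.26 ± 0.063 in AdPl (SD, n = 4 each), a log2 fold change of -0.34 ± 0.081 with groups that did not overlap (limma adjusted p = 0.116). Rpp38 was at -0.22, Rpp21 at 0.26 and Rpp25 at 0.15. Of 7 genes of the 7SK particle and P-TEFb 0 were called (1 had an unadjusted p under 0.05, against 12.5% of all genes), with a median of 0.057. Hexim2 (0.25), which inhibits P-TEFb on 7SK RNA, and Larp7 (0.22), which binds 7SK RNA, were highest, and the kinase gene Cdk9 (-0.18) and the cyclin gene Ccnt2 (-0.12) were lowest. With 4 arrays a group, 0 calls do not show that these genes were equal (over all genes the standard error had a median of 0.11 on the log2 scale).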

How the data were processed

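Total RNA was measured on 8 single-colour arrays, 4 in each group, and each array was grouped by its title. The authors made the deposited log2 values with RMA (version not given), per the submitters' processing notes. The table holds 25428 rows keyed by Entrez identifiers. The supplied probe table gave 1 symbol for 24705 rows, several for 0 and none for 723, which stay unnamed. The brightest row was kept where a symbol had more than 1, which left 24704 genes. Sorted values were the same on 7 arrays (within 1e-08) and differed by at most 0.00183 on AdN5 replicate 1.

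The groups were compared in R 4.3.3 with limma 3.58.1 (two-sided, lmFit then eBayes, no covariates) over all genes, with Benjamini-Hochberg adjustment over all genes and a threshold of 0.05. Correlations used deviations from group means, with exact permutations within groups (576 rearrangements). Scripts were tested on simulated data. Python 3.11.15 and matplotlib 3.10.9 drew the figures.

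Members, lists and alternatives were chosen with earlier results of these data known. The rule for named genes took the members, Nfat5, and in each list the called genes and the 2 highest and 2 lowest log2 fold changes. Flanking genes, Maf1, Myc, all 4 rows listed as other polymerase III RNAs, all 6 U-RNAs and marker genes were added after values were seen. The plan allowed for several n-R5s rows, so the co-variation among them was replaced by that among the members, and its permutation p was added. Alternatives were filters on dim genes, arrays left out, array weights, a robust fit with a variance trend, all rows kept, centring on medians, a second quantile normalisation, a block for the replicate number and an adjusted p under 0.01. Same-numbered arrays had deviations that correlated at -0.079 to 0.055, so the numbers were not taken to pair the arrays.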

Additional observations from a re-analysis of the deposited data

Results flagged for a closer look

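Among 98 groups of 4 arrays (49 named genes in AdN5 and AdPl), 8 had an array whose gap to its nearest neighbour exceeded Dixon's 95% critical share of the range, where chance gives about 1 in 20. None of the 4 members was among them. Rnu11 was at 7.76 on AdN5 replicate 4, against 8.19 to 8.21 on the other AdN5 arrays, and n-R5s136 and Rpph1 had their lowest AdN5 value on the same array. Ccnt2 was at 6.97 on AdPl replicate 3 (7.13 to 7.14 on the other AdPl arrays), Brf2 at 4.502 on AdPl replicate 2 (4.150 to 4.198), and Rpp38 at 5.71 on AdPl replicate 4 (5.42 to 5.46). Csnk2a2 was at 7.92 on AdN5 replicate 2 (8.10 to 8.13 on the other AdN5 arrays). The dim rows Rnu7-ps3, at 1.43 on AdN5 replicate 2 (1.73 on the others), and Mir1900, at 2.02 on AdN5 replicate 3 (2.78 to 2.90), were also far from their group. Rn18s-rs5 was at 13.601 on AdN5 replicate 1 and at 13.600 on the other AdN5 arrays, the offset of that array's sorted values.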

How the results depend on the processing

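The log2 fold changes of n-R5s136, Rpph1, Rmrp and Rn7sk kept their sign in every alternative run and moved by less than 1 SD between replicates. n-R5s136 was called in 17 of 18 alternatives, and Rpph1 in 7. With the replicate number as a block, 14 genes were called over all genes, 0 n-R5s rows and 0 small RNA rows, and of the 4 members 0 were called; only 1 of 4 AdN5 arrays and 2 of 4 AdPl arrays correlated best with their own number, and same-numbered arrays share only a number. Against 192 calls over all genes there were 781 in a robust fit with a variance trend, 497 among genes above the median, 30 without AdPl replicate 3 and AdN5 replicate 4, 42 at an adjusted p under 0.01, and 56 to 88 with 1 array left out. Protein genes of the polymerase III lists gave 0 calls, but 1 among genes above the median (Pop4, lower) and 2 with the variance trend (Pop4 and Polr2e, lower), and 0 in each fit with 1 array left out. Other small RNA rows gave 1 call, but 4 among genes above the median, 7 with the variance trend, 0 without those 2 arrays, 0 at an adjusted p under 0.01 and 0 to 1 with 1 array left out. In both settings with more calls Snord13 alone of these rows was called higher. All the others were called lower, with Snord87, Mir199a-1 and Mir3064 in both settings. The correlation of n-R5s136 with Rpph1 inside the groups was 0.63 to 0.94 with 1 array left out. The cause of these shifts was not tested, beyond the smaller number of genes or arrays in some settings. Precision is limited by the number of arrays, and values in the top few places of an array are limited by the ranks left there.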
